A study of Mus musculus with 5 samples.

Results

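The Toll-like receptor family was examined as 10 genes, Tlr1 to Tlr9 and Tlr13, which were taken by exact symbol from the 55291 gene symbols of the series. The members comprised 5 receptors of the cell surface (Tlr1, Tlr2, Tlr4, Tlr5 and Tlr6) and 5 receptors of endosomes (Tlr3, Tlr7, Tlr8, Tlr9 and Tlr13). RNA had been sequenced from mouse bone marrow cells labelled as monocytes, in 2 Tet2-mutant samples (replicates 2 and 3) and 3 wild-type samples (replicates 1, 2 and 3). Tet2 is an enzyme that starts the removal of methyl groups from cytosine, and its loss is common in myeloid neoplasms. The Tet2 allele, the strain, the age, any treatment, the isolation of the cells and the number of animals behind each sample are not given in the labels, which name no agent or allele shared by both genotypes. Because separate animals are not stated, the p-values below measure variation among these samples only, and part of it may be technical.

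Toll-like receptors are membrane proteins whose leucine-rich outer part binds microbial molecules and whose inner TIR domain recruits adaptor proteins. The surface receptors recognise lipoproteins, lipopolysaccharide and flagellin, whereas the endosomal receptors recognise RNA and DNA and need the chaperone Unc93b1 to leave the endoplasmic reticulum. Most members signal through the adaptor Myd88, Tlr3 signals through Ticam1 and Tlr4 through both, and the signal ends at NF-kB and at interferon regulatory factors in monocytes, macrophages, dendritic cells, B cells and neutrophils.

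The gene counts summed to 17459808 and 60508381 in Tet2-mutant replicates 2 and 3, against 53789308 to 72414875 in the wild-type libraries. Tet2 itself averaged 10.4 ± 7.25 CPM in the mutant (SD, n = 2) and 10.7 ± 1.07 CPM in the wild type (SD, n = 3), where CPM is the usual count scaled to library size, here after TMM adjustment. Tet2 thus did not separate the genotypes (edgeR, adjusted p = 0.966), and since the mutation is not described, its level does not check the labels. Symbols with a count numbered 18047 and 17944 in the mutant libraries and 24532 to 26207 in the wild-type libraries. All 8 monocyte markers were detected in every library, with a summed level of 1025 to 2095 CPM in the mutant and 1292 to 1356 CPM in the wild type. Single monocyte markers moved in both directions within this sum, as given below. Transcripts of other cells were present throughout, and neutrophil markers reached 23070 to 52160 CPM in the mutant and 46580 to 58410 CPM in the wild type. Macrophage markers summed to 3361 to 4522 CPM in the mutant and 286 to 386 CPM in the wild type, and conventional dendritic cell markers to 811 to 851 and 95.5 to 114 CPM. The sum of B cell markers was 951 and 7517 CPM in the mutant libraries, while wild-type libraries had 148 to 707 CPM. Plasmacytoid dendritic cell markers summed to 409 and 1388 CPM in Tet2-mutant replicates 2 and 3 and to 157 to 286 CPM in the wild type, T cell markers to 1162 and 914 CPM and to 104 to 199 CPM, and erythroid markers to 13600 and 2023 CPM and to 5627 to 15620 CPM. Of the mutant plasmacytoid sums Ly6d alone gave 221 and 946 CPM, while Siglech and Cox6a2 were lower than in the wild type. Pancreatic acinar transcripts summed to 650.1 and 1691 CPM in Tet2-mutant replicates 2 and 3 and to 40.1 to 56.4 CPM in the wild type. In such bulk samples, a change in the number of cells of a type and a change in RNA per cell cannot be told apart.

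Of the 10 receptors, 3 were called higher in the Tet2 mutant, namely Tlr1, Tlr7 and Tlr9, and 0 were called lower. All 10 had passed the filter on low counts. Calls required an adjusted p under 0.05 in the quasi-likelihood test of edgeR, with p-values adjusted by the Benjamini-Hochberg method across 17062 genes, and every adjusted p below is from that test unless another tool is named. Over all tested genes 15% were called, 10.6% higher and 4.43% lower, so the 3 of 10 (30%) called higher exceeded the background share. The family is too small for more to be read from it, and it was chosen with earlier results of these data known. Among surface receptors 1 of 5 rose and among endosomal receptors 2 of 5 rose. The median change, as the log2 ratio of the mutant to the wild type, was 0.28 for the 10 members, 0.27 for the surface receptors and 2.12 for the endosomal receptors, against -0.07 for all tested genes. The median of the 10 members turned to -0.32 on library totals and to -0.11 with upper-quartile scaling, so the family as a whole has no direction that holds under each scaling. The median of all tested genes was lower there too, at -0.58 on library totals and -0.35 with upper-quartile scaling. The surface median likewise turned under both of these scalings and with limma-voom, to between -0.34 and -0.07. The endosomal median is the value of Tlr3, which was not called, and was -0.56 without mutant replicate 3. Fits that leave out a mutant library have a mutant arm of 1 library, which is assumed to vary like the wild type. They called 58.7% (without replicate 2) and 39.4% (without replicate 3) of all tested genes, so no call is taken from them. Mutant and wild-type libraries were fully separate for 3 members that were higher and 2 that were lower in the mutant, where 22.9% and 33.3% of all tested genes (56.2% in either direction) showed such separation. Without the TMM factors, on library totals alone, the same 3 receptors rose, by 2.67 (Tlr1), 1.65 (Tlr7) and 4.77 (Tlr9) on the log2 scale, while the median over all genes moved by -0.50 on that scale and the share of calls that were higher was 29.1%, against 70.5% with TMM. At an unadjusted p under 0.05 in edgeR 1 member, Tlr13, was lower, and limma-voom called 0 members lower. With DESeq2 Tlr5 was called lower in addition (log2 fold change -2.98, adjusted p = 0.0313), and on library totals alone Tlr13 was called lower (log2 fold change -1.37, adjusted p = 0.0443).

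**Figure D1:**
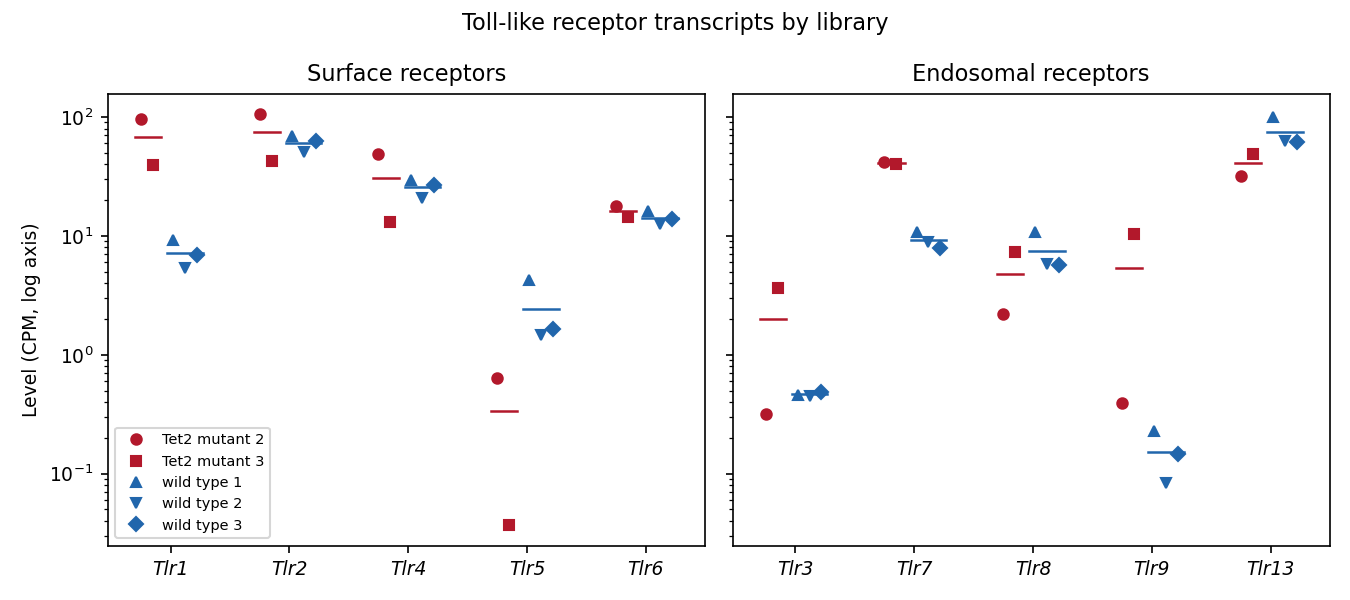
Level of each receptor in CPM on a log axis, in Tet2-mutant libraries (red, left of each pair) and wild-type libraries (blue); horizontal lines are genotype means (n = 2 and 3). Tlr1 and Tlr7 lie above all wild-type libraries in both mutant libraries, Tlr5 and Tlr13 lie below, and Tlr3 and Tlr9 are high in Tet2-mutant replicate 3.

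Per length of exon, Tlr2 led the family in the mutant with 24.6 ± 14.9 CPM per kilobase of merged exon (SD, n = 2) and in the wild type with 20.2 ± 3.27 (SD, n = 3). In the mutant the order of the mean levels per kilobase went on with Tlr1 at 20.5 ± 12.1, Tlr7 at 10.1 ± 0.227, Tlr13 at 9.45 ± 2.83, Tlr4 at 5.58 ± 4.57 and Tlr6 at 4.32 ± 0.653. The lower end of the mutant order, with the same scale, was Tlr9 at 1.56 ± 2.04, Tlr8 at 1.33 ± 1.01, Tlr3 at 0.381 ± 0.453 and Tlr5 at 0.07 ± 0.088. The ranges of neighbours over the libraries overlapped, except those of Tlr1 and Tlr7 and those of Tlr6 and Tlr9. Within each mutant library Tlr2 also exceeded Tlr1, by 35.1 to 29.0 in replicate 2 and 14.2 to 11.9 in replicate 3. In the wild type the order per kilobase was Tlr2, then Tlr13 at 17.5 ± 5.13, Tlr4 at 4.62 ± 0.785, Tlr6 at 3.83 ± 0.496, Tlr7 at 2.25 ± 0.351, Tlr1 at 2.15 ± 0.573 and Tlr8 at 2.06 ± 0.801 (SD, n = 3). Tlr5 at 0.51 ± 0.322, Tlr3 at 0.0895 ± 0.00392 and Tlr9 at 0.0439 ± 0.0208 per kilobase closed the wild-type order. In the wild type the ranges of Tlr2 and Tlr13 overlapped, as did those of Tlr4 and Tlr6 and those of Tlr7, Tlr1 and Tlr8, while the other neighbours were separate. Tlr1 ranked 2 in both mutant libraries and 5 or 6 in the wild-type libraries.

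Of the lipoprotein receptors Tlr1 rose, while Tlr2 and Tlr6 did not pass the test. The protein pairs with Tlr2 to bind triacylated lipoproteins, while Tlr6 pairs with Tlr2 to bind diacylated ones. Tlr1 (chr5:64924679-64933563, minus strand, GRCm38) lies next to Tlr6 (chr5:64952031-64960097, minus strand), whereas Tlr2 is on another chromosome (chr3:83836272-83841767, minus strand). The RefSeq promoters of Tlr1 and Tlr6 are shown because one of these neighbours was called and the other was not. Each runs from 250 bases before to 50 bases after a RefSeq start (GRCm38.p6), 5′ to 3′ on the minus strand. Capitals mark matches on either strand to an interferon-stimulated response element (GAAA, 2 bases of any kind, GAAA), a gamma-activated site (TTCNNNGAA), a PU.1 motif (GAGGAAGT) or an AP-1 motif (TGANTCA).
Tlr1 start A, chr5:64933509-64933808: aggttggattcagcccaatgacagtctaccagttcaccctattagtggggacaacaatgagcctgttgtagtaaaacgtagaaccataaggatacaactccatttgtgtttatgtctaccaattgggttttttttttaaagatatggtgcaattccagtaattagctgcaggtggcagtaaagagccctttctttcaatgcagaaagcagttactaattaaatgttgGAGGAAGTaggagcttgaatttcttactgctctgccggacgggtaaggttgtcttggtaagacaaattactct
Tlr1 start B, chr5:64932650-64932949: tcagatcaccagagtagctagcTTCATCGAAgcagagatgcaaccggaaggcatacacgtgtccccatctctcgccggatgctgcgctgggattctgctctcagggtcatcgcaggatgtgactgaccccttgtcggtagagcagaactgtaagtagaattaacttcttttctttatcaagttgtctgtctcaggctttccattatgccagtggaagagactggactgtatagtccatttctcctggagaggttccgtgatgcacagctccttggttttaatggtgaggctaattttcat
Tlr6 start A, chr5:64959999-64960298: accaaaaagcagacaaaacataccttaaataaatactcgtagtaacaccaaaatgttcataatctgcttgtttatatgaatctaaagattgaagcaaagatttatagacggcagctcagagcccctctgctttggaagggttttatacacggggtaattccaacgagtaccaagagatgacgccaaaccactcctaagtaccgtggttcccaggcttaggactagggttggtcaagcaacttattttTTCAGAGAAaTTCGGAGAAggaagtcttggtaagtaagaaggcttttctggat
Tlr6 start B, chr5:64959117-64959416: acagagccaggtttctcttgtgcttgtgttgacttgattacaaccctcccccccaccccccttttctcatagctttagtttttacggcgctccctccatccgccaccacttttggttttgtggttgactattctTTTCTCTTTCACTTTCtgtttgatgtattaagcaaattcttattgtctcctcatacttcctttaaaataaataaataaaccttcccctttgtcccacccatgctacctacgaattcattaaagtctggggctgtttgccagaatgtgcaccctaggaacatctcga

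Start A of Tlr1 held the PU.1 motif and start B a gamma-activated site. Start A of Tlr6 held 2 gamma-activated sites and start B held 2 overlapping interferon-stimulated response elements. Among 32851 RefSeq promoters of this length, 3.44% held the interferon-stimulated response element, 8.3% the gamma-activated site, 3.2% the PU.1 motif and 7.81% the AP-1 motif. These matches are descriptions of letters, and no binding was measured. Of the 10 receptors 8 had a promoter entry, and the windows of Tlr2, Tlr3, Tlr5 and Tlr13 held none of the 4 motifs.

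Tlr1 had 97.1 and 39.8 CPM in the Tet2-mutant libraries (replicates 2 and 3), against 9.23, 5.42 and 6.95 CPM in the wild-type libraries. Both mutant libraries were above all 3 wild-type libraries. Tlr1 averaged 68.5 ± 40.5 CPM in the mutant (SD, n = 2) and 7.2 ± 1.92 CPM in the wild type (SD, n = 3), a log2 fold change of 3.25 ± 0.47 (SE, adjusted p = 0.00846). Over the 13 alternatives that were run its log2 fold change was 2.47 to 3.75. The gene was called in every alternative that kept both mutant libraries. Its transcripts share sequence with those of Tlr6, since 14.8% of the 50-base windows of Tlr1 and 12.3% of those of Tlr6 occur in the other gene, so that reads of these stretches could be assigned to either. No other pair among the mouse Toll-like receptors shared a window of that length.

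Tlr2, the common partner, had 106 and 42.6 CPM in the mutant libraries, against 69.8, 50.3 and 62.5 CPM in the wild-type libraries. The mutant libraries lay on either side of the wild-type ones, and the log2 fold change was 0.29 ± 0.41 (SE, adjusted p = 0.617). Tlr6 had 17.8 and 14.4 CPM in the mutant libraries, against 16.3, 12.7 and 13.8 CPM in the wild-type libraries. The genotypes overlapped for Tlr6 (log2 fold change 0.17 ± 0.40, SE, adjusted p = 0.766).

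Ratios of counts within a library need no scaling between libraries. The ratio of Tlr1 to Tlr2 counts was 0.917 and 0.934 in the mutant libraries, against 0.132, 0.108 and 0.111 in the wild-type libraries. The 2 mutant libraries gave nearly one value although their depth and their Tlr1 level differed. The ratio of Tlr1 to Tlr6 was 5.45 and 2.77 in the mutant libraries, against 0.566, 0.427 and 0.502 in the wild-type libraries, and the genotypes did not overlap. The ratio of Tlr6 to Tlr2 was 0.168 and 0.337 in the mutant libraries, against 0.233, 0.252 and 0.221 in the wild-type libraries, with the mutant values on both sides.

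**Figure D2:**
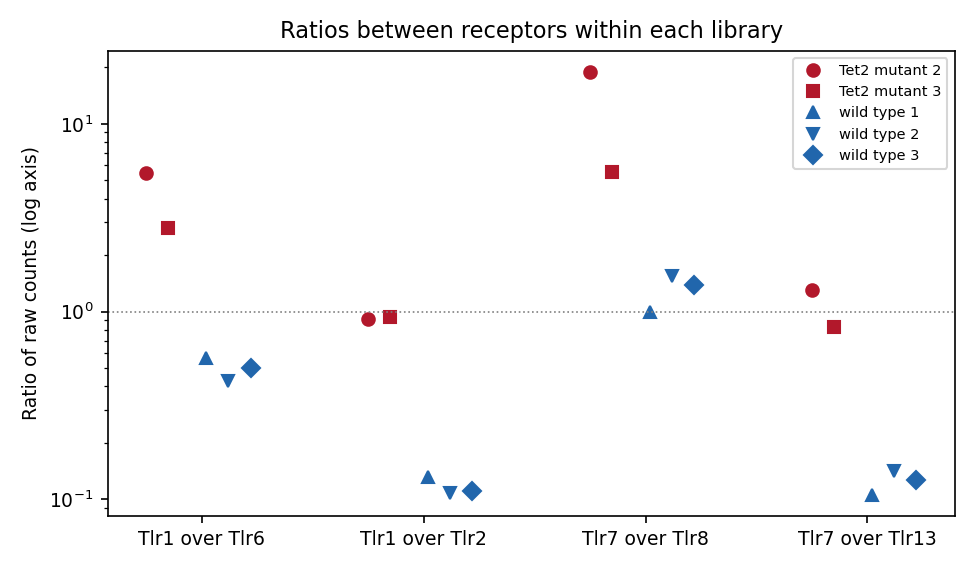
Ratio of the raw counts of a pair of receptors within each library, on a log axis, for Tet2-mutant (red, left) and wild-type (blue) libraries; each point is 1 library. Tlr1 over Tlr2 is 0.917 and 0.934 in the mutant libraries and at most 0.132 in the wild-type libraries, and both genotypes are also separate for Tlr1 over Tlr6, Tlr7 over Tlr8 and Tlr7 over Tlr13.

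Tlr4, the receptor for lipopolysaccharide (chr4:66827584-66930284, plus strand), had 48.9 and 13 CPM in the mutant libraries, against 29.4, 20.9 and 26.6 CPM in the wild-type libraries. Replicate 2 of the mutant was above every wild-type library and replicate 3 below every one, and the log2 fold change was 0.27 ± 0.55 (SE, adjusted p = 0.734). The log2 fold change was 0.93 without mutant replicate 3 and -0.98 without mutant replicate 2.

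Tlr5, the flagellin receptor (chr1:182954788-182976044, plus strand), had 0.633 and 0.0369 CPM in the mutant libraries, from 8 and 2 counts, against 4.22, 1.45 and 1.65 CPM in the wild-type libraries, from 315, 122 and 101 counts. The mutant libraries were both below the wild-type ones, and the exact Poisson intervals, which cover counting error only, ran from 0.273 to 1.25 CPM and from 0.00447 to 0.133 CPM in the mutant. The log2 fold change of Tlr5 was -3.06 ± 1.34 (SE, adjusted p = 0.135), so the gene did not pass the test. The 2 counts of mutant replicate 3 are under the floor of 3 counts. The log2 fold change of Tlr5 was -5.98 without mutant replicate 2 and -1.95 without mutant replicate 3.

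**Figure D3:**
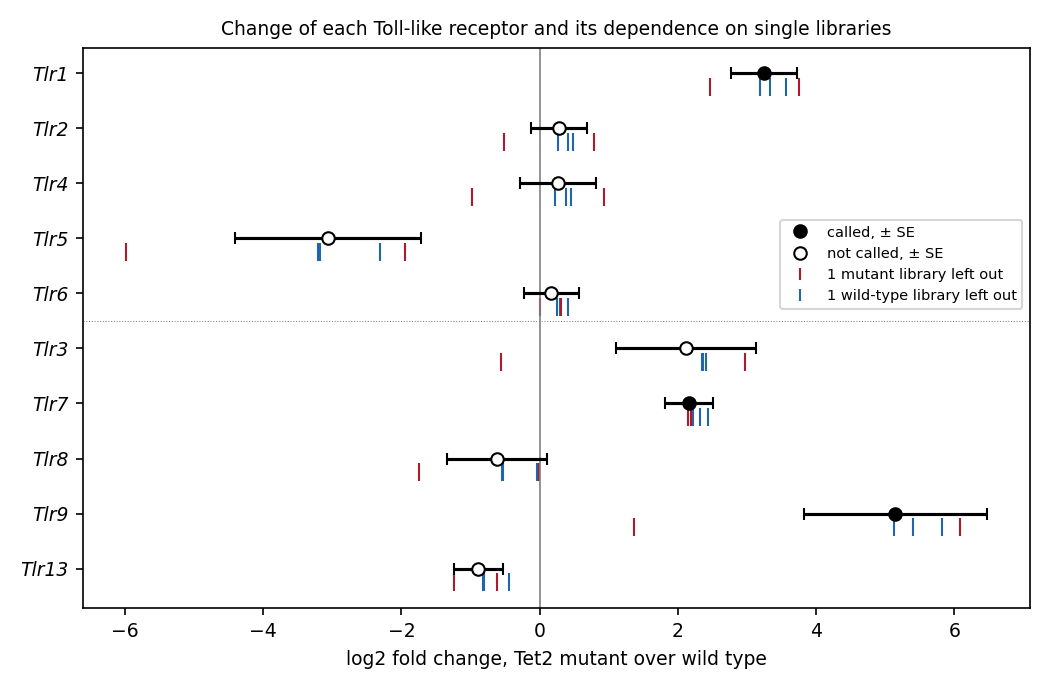
Log2 fold change of Tet2 mutant over wild type for each receptor with its SE (circles and bars, filled where called), and the value with 1 mutant (red ticks) or 1 wild-type library (blue ticks) left out. Tlr1, Tlr7 and Tlr9 stay above 0, and Tlr5, Tlr8 and Tlr13 stay below it, with Tlr8 as close as -0.01. Leaving out mutant libraries puts Tlr3 at 2.97 and -0.56 and Tlr4 at -0.98 and 0.93.

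Tlr7, Tlr8 and Tlr13 sense RNA in endosomes and are X-linked, with Tlr7 (chrX:167304929-167330558, minus strand) and Tlr8 (chrX:167242696-167264329, minus strand) as neighbours and Tlr13 (chrX:106143204-106160493, plus strand) farther off. Of these 3, Tlr7 rose while Tlr8 and Tlr13 did not pass the test. Tlr7 binds single-stranded RNA and guanosine, and had 41.9 and 40.6 CPM in the mutant libraries, against 10.7, 8.95 and 7.86 CPM in the wild-type libraries. The mutant libraries were close to each other and above all wild-type libraries. Tlr7 averaged 41.2 ± 0.927 CPM in the mutant (SD, n = 2) and 9.17 ± 1.43 CPM in the wild type (SD, n = 3), a log2 fold change of 2.17 ± 0.35 (SE, adjusted p = 0.0119). Leaving out a wild-type library lowered the number of calls over all genes, to between 3.85% and 5.52% of those tested. Without wild-type replicate 2 or 3 the adjusted p of Tlr7 was 0.0504 and 0.055, with log2 fold changes of 2.31 and 2.23.

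Tlr8 had 2.22 and 7.34 CPM in the mutant libraries, against 10.7, 5.78 and 5.71 CPM in the wild-type libraries. The genotypes overlapped, and the log2 fold change was -0.62 ± 0.73 (SE, adjusted p = 0.54). It was -1.74 without mutant replicate 3 and -0.01 without mutant replicate 2. The ratio of Tlr7 to Tlr8 counts was 18.9 and 5.53 in the mutant libraries, against 0.999, 1.55 and 1.38 in the wild-type libraries, and the genotypes did not overlap.

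Tlr13, which in mice binds bacterial ribosomal RNA, had 32.1 and 49.3 CPM in the mutant libraries, against 101, 63.2 and 61.8 CPM in the wild-type libraries. Both mutant libraries were below all wild-type libraries, and the log2 fold change was -0.89 ± 0.36 (SE, adjusted p = 0.114), which did not pass the test. It was -1.24 without mutant replicate 3 and -0.61 without mutant replicate 2. The ratio of Tlr7 to Tlr13 counts was 1.31 and 0.823 in the mutant libraries, against 0.106, 0.141 and 0.127 in the wild-type libraries.

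Transcripts that mark X and Y chromosome content differed among the libraries. Xist, the RNA of the inactive X chromosome, had 27.4 and 21.1 CPM in the mutant libraries, against 0.188, 0.179 and 32.3 CPM in the wild-type libraries. The Y-linked gene Ddx3y had 14.7 and 1.22 CPM in the mutant libraries, against 71.4, 69.0 and 0.163 CPM in the wild-type libraries. Eif2s3y, Kdm5d and Uty were likewise higher in mutant replicate 2 than in mutant replicate 3 and lowest in wild-type replicate 3. Mutant replicate 2 thus held both Xist and Y-linked transcripts. Xist was high in both mutant libraries but low in wild-type replicates 1 and 2, so chromosome content was not balanced between the genotypes. Wild-type replicate 3, which had the highest Xist level, had 7.86 CPM of Tlr7, 5.71 CPM of Tlr8 and 61.8 CPM of Tlr13. The part of chromosome content in the mutant values was not tested.

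Tlr9 and Tlr3 were the least expressed members in the wild type, and both were high in mutant replicate 3 alone. Tlr9 (chr9:106222598-106226883, plus strand) binds DNA with unmethylated CpG and is known from B cells and plasmacytoid dendritic cells. It had 0.396 and 10.4 CPM in the mutant libraries, from 5 and 566 counts, against 0.228, 0.0834 and 0.147 CPM in the wild-type libraries, from 17, 7 and 9 counts. Both mutant libraries were above the wild-type ones, but the interval of mutant replicate 2 (0.129 to 0.924 CPM, exact Poisson) overlapped that of wild-type replicate 1 (0.133 to 0.365 CPM), and the rise rested on replicate 3 (9.6 to 11.3 CPM). The log2 fold change was 5.15 ± 1.32 (SE, adjusted p = 0.0441). Without mutant replicate 3 the log2 fold change of Tlr9 was 1.36. The call of Tlr9 was lost without any 1 of the wild-type libraries (adjusted p of 0.117 to 0.145), and with limma-voom (log2 fold change 4.40, adjusted p = 0.0574).

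The promoter of Tlr9 is shown with the same marks on the plus strand, and held an AP-1 motif and, just after the start, a PU.1 motif.
Tlr9, chr9:106222348-106222647: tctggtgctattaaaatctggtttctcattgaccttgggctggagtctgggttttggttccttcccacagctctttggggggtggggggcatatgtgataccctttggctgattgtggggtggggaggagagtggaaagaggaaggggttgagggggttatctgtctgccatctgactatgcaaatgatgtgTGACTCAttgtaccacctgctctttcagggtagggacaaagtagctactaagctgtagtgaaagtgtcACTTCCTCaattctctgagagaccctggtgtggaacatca

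B cell markers were given beside Tlr9 because B cells express it. Their summed level was 951 and 7517 CPM in the mutant libraries, against 707, 657 and 148 CPM in the wild type, and 3 of the 10 markers were called higher. Of the 10, 8 were highest in mutant replicate 3, the library with the most Tlr9, and Fcer2a and Cr2 were highest in wild-type replicate 1. Within the wild type replicate 3 had the lowest sum of B cell markers. Tlr9 had 7 and 9 counts in wild-type replicates 2 and 3. Their exact Poisson intervals overlapped (0.0335 to 0.172 and 0.0671 to 0.279 CPM), so these libraries cannot be ranked by Tlr9. Cd79a, one of the 3 called markers and a chain of the B cell receptor complex, had 333 and 2821 CPM in the mutant libraries, against 167, 187 and 34.7 CPM in the wild-type libraries. No B cell marker was at 0 in any library. Of the plasmacytoid dendritic cell markers 2 of 10, Ly6d and Bst2, were called higher and none was at 0. The sum of all 10 was 409 and 1388 CPM in the mutant libraries, against 252, 286 and 157 CPM in the wild-type libraries. Ly6d alone gave 221 and 946 CPM in the mutant libraries, against 93.6, 118 and 38.1 CPM in the wild-type libraries. Of the 10 markers, 6 were highest in mutant replicate 3. The defining Siglech went the other way, with 8.63 and 1.16 CPM in the mutant libraries, against 25, 29.3 and 33.4 CPM in the wild-type libraries. So did Cox6a2, with 0.554 and 0.0553 CPM in the mutant libraries, against 1.77, 2.25 and 1.16 CPM in the wild-type libraries. Neither Siglech nor Cox6a2 was called. The part of these cells in the Tlr9 result was not tested.

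Tlr3, a receptor for double-stranded RNA (chr8:45395665-45411080, minus strand), had 0.317 and 3.65 CPM in the mutant libraries, from 4 and 198 counts, against 0.455, 0.453 and 0.489 CPM in the wild-type libraries. Mutant replicate 2 was below and replicate 3 above the 3 wild-type libraries, which agreed closely. The log2 fold change was 2.12 ± 1.01 (SE, adjusted p = 0.158), and it was 2.97 without mutant replicate 2 and -0.56 without mutant replicate 3.

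The balance of surface and endosomal receptors was described by the share of the summed level per kilobase that the endosomal receptors held. This share was 19.2% and 45.7% in the mutant libraries, against 44.4%, 41.9% and 36.3% in the wild-type libraries. Mutant replicate 2 lay below and replicate 3 above all wild-type libraries, and the means of 32.5% ± 18.8 in the mutant (SD, n = 2) and 40.9% ± 4.19 in the wild type (SD, n = 3) differed by less than the pooled SD of 11.3 percentage points. An exact permutation test of 2 against 3 libraries cannot reach 0.05, since the smallest one-sided p it allows is 0.1. The surface receptors summed to 77.9 and 32.3 CPM per kilobase in the mutant libraries, against 36.5, 25.8 and 31.7 in the wild-type libraries. The endosomal receptors summed to 18.5 and 27.2 in the mutant libraries, against 29.2, 18.6 and 18.0 in the wild-type libraries on the same scale. Without Tlr13 the endosomal share was 12.43% and 32.73% in the mutant libraries, against 13.64%, 13.18% and 10.35% in the wild-type libraries. The difference of the means, mutant minus wild type, then turned to 10.19 percentage points.

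Within each compartment the makeup differed between genotypes in every library. Tlr13 held 40.3% and 42.2% of the endosomal sum per kilobase in the mutant libraries, against 80.2%, 79.0% and 79.7% in the wild-type libraries. Tlr7 held 55.5% and 36.6% of that sum in the mutant libraries, against 8.99%, 11.8% and 10.7% in the wild-type libraries. Among surface receptors Tlr1 held 37.3% and 36.9% in the mutant libraries, against 7.56%, 6.29% and 6.56% in the wild-type libraries. Tlr2 held 45.1% and 43.9% of the surface sum in the mutant libraries, against 63.5%, 64.8% and 65.5% in the wild-type libraries. These shares did not overlap between genotypes and varied little within them, apart from Tlr7 in the mutant. By their levels 56.2% of all tested genes separated the genotypes in either direction. Shares of the same sum depend on each other, so they are not results separate from the levels of Tlr1 and Tlr7.

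**Figure D4:**
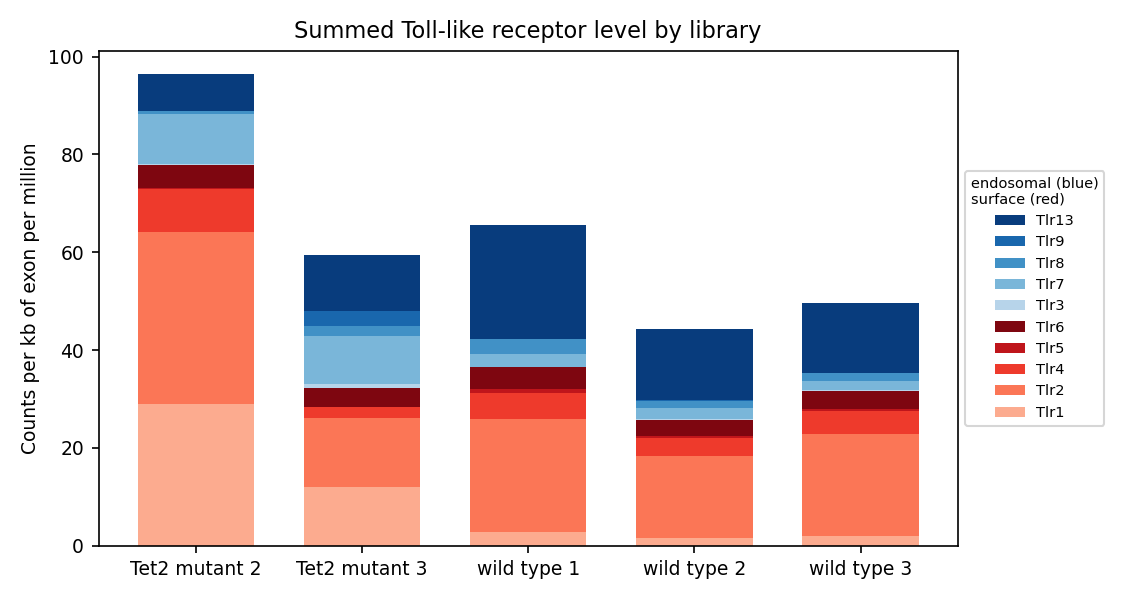
Level of each of the 10 receptors in CPM per kilobase of merged exon, stacked in 1 bar per library, with surface receptors in red below endosomal receptors in blue and Tet2-mutant libraries left of wild-type libraries. The endosomal part holds 19.2% and 45.7% of the mutant bars and 36.3% to 44.4% of the wild-type bars, and Tlr13 makes up most of it in the wild type.

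Macrophage markers were higher in the same libraries as Tlr1 and Tlr7. All 11 were called higher, none was at 0 in any library, and their sum was 4522 and 3361 CPM in the mutant libraries, against 386, 286 and 312 CPM in the wild-type libraries. Of 8 monocyte markers 2, Csf1r and Fcgr1, were called higher and 1, Itgam, was called lower. Of 10 conventional dendritic cell markers 5 were called higher and of 8 T cell markers 5. Of 10 neutrophil markers 1 was called lower. All 10 pancreatic acinar genes were called higher too. The part of other cells in the receptor changes was not tested.

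By likeness of profile over the 5 libraries, measured as the Euclidean distance between centred log2 CPM values among genes with a mean of at least 10 CPM, the genes nearest to Tlr1 were Pld2 (distance 0.321), Cd247 (0.371) and Castor1 (0.374). The nearest to Tlr7 were Plekhm3 (0.221), Gramd3 (0.226) and Lmbrd1 (0.244). The nearest to Tlr9, at larger distances, were Krt18 (0.87), Diras2 (0.984) and Krt222 (1.07).

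Mice have further receptors of the family that sense profilin of protozoa, Tlr11 and Tlr12, which are not among the 10. Tlr11 had 25.3 and 13.1 CPM in the mutant libraries, against 0.415, 0.417 and 0.375 CPM in the wild-type libraries, so that it rose (log2 fold change 5.56 ± 0.62, SE, adjusted p = 0.00321). Tlr12 had 28 and 4.8 CPM in the mutant libraries, against 1.45, 1.89 and 1.91 CPM in the wild-type libraries (log2 fold change 3.22 ± 0.79, SE, adjusted p = 0.041). The call of Tlr12 was lost without any 1 of the wild-type libraries (adjusted p of 0.107 to 0.14) and with limma-voom (adjusted p = 0.0768).

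In the wider pathway 32 of 100 tested genes rose (32%) and 3 fell (3%), with a median log2 fold change of 0.68, against 10.6%, 4.43% and -0.07 for all tested genes. The lists were chosen with earlier results of these data known, so this comparison is a description only. Mutant and wild-type libraries were fully separate for 49 of the 100 that were higher and 19 that were lower, where 22.9% and 33.3% of all tested genes were. Of 6 co-receptors 2 rose. They were Cd180, a Tlr4-like receptor of B cells and myeloid cells, and its partner Ly86. Cd180 had 28.1 and 57.7 CPM in the mutant libraries, against 5, 3.47 and 3.56 CPM in the wild-type libraries (log2 fold change 3.42 ± 0.46, SE, adjusted p = 0.00656). Ly86 had 402 and 609.5 CPM in the mutant libraries, against 42.4, 47.6 and 46.0 CPM in the wild-type libraries (log2 fold change 3.48 ± 0.27, SE, adjusted p = 0.000929). Both mutant libraries exceeded every wild-type library for this pair. Cd14, which hands lipopolysaccharide to Tlr4, had 254 and 149 CPM in the mutant and 79.1 to 134 CPM in the wild type, without a call (adjusted p = 0.0805). Ly96, the lipopolysaccharide-binding partner of Tlr4, had 3.09 and 31.2 CPM in the mutant libraries, against 3.64, 4.21 and 3.36 CPM in the wild-type libraries (adjusted p = 0.108). It was high in mutant replicate 3, where Tlr4 was lowest.

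Among the chaperone, transport and processing genes 6 of 13 rose, with a list median of 0.86. Unc93b1, which carries the endosomal receptors out of the endoplasmic reticulum, had 1030.2 and 972 CPM in the mutant libraries, against 473, 421 and 360.1 CPM in the wild-type libraries (log2 fold change 1.26 ± 0.24, SE, adjusted p = 0.0209). The proteases Ctss and Lgmn, which cleave endosomal receptors, had log2 fold changes of 3.65 ± 0.28 (adjusted p = 0.000884) and 3.59 ± 0.24 (adjusted p = 0.000848) and so rose. Slc15a4, an endolysosomal transporter needed for Tlr7 and Tlr9 signals, rose by 1.59 ± 0.24 (adjusted p = 0.01), and 5430427O19Rik rose by 1.90 ± 0.25 (adjusted p = 0.0059). Mutant and wild-type libraries were fully separate for 8 of the 13 that were higher and 2 that were lower. Of all tested genes 22.9% and 33.3% were. The 5 genes named here were all separate, but 4 of them were picked for a small p, so their separation adds nothing to the calls.

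Among nucleases and transporters acting on nucleic acids 3 of 7 rose, with a list median of 1.62. Dnase1l3, a secreted DNase of macrophages and dendritic cells, had 387 and 139 CPM in the mutant libraries, against 1.74, 1.44 and 1.34 CPM in the wild-type libraries, a log2 fold change of 7.44 ± 0.51 (SE, adjusted p = 0.000848). The exonucleases Pld4 and Pld3, which degrade ligands of Tlr7 and Tlr9, rose by 2.30 ± 0.25 (adjusted p = 0.00316) and 1.93 ± 0.25 (adjusted p = 0.006). Rnaset2a and Rnaset2b are near-identical copies, and their counts are uncertain.

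Of 5 adaptors tested edgeR called 0, with 2 at an unadjusted p under 0.05, while DESeq2 and limma-voom each called 1. Myd88 had 370 and 236 CPM in the mutant libraries, against 172, 161 and 182 CPM in the wild-type libraries (log2 fold change 0.82 ± 0.27, SE, adjusted p = 0.0734). Ticam2, the bridging adaptor of Tlr4, had 24.2 and 48.4 CPM in the mutant and 13.7 to 16 CPM in the wild type (adjusted p = 0.0634). Ticam1, the adaptor of Tlr3, had 2.85 and 26.0 CPM in the mutant libraries, against 6.36, 4.79 and 6.61 CPM in the wild-type libraries (adjusted p = 0.274), with the mutant libraries on either side of the wild type as for Tlr3.

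Of 21 kinases, ubiquitin ligases and their partners 1 rose and 2 fell. The ubiquitin-conjugating enzyme Ube2n rose by 1.41 ± 0.31 (SE, adjusted p = 0.0323) on the log2 scale. Tab1 and Tab3, which bind the kinase Map3k7, fell by 1.79 ± 0.36 (adjusted p = 0.0238) and 2.03 ± 0.55 (adjusted p = 0.0495). Without any 1 of the wild-type libraries the log2 fold changes were -1.59 to -1.68 for Tab1 and -1.84 to -1.98 for Tab3 and neither was called, in fits that called 0.0371% to 0.112% of all genes lower.

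Of 10 transcription factors 5 rose, with a list median of 0.83. Nfkb1, a subunit of NF-kB, had 363 and 238 CPM in the mutant and 90.2 to 100 CPM in the wild type (log2 fold change 1.66 ± 0.26, SE, adjusted p = 0.0109). Irf7, which drives type I interferon genes, had 599 and 232 CPM in the mutant and 92.6 to 114 CPM in the wild type (log2 fold change 2.05 ± 0.39, SE, adjusted p = 0.021). Irf5 (log2 fold change 1.16 ± 0.23, adjusted p = 0.0232) and Irf3 (1.08 ± 0.23, adjusted p = 0.0283) rose too. Without wild-type replicate 1, 2 or 3 the factors called higher numbered 1, 2 and 2, in fits that called 3.81%, 5.41% and 5.09% of all genes higher.

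Of 19 inhibitors 8 rose and 1 fell, with a list median of 0.91. Nfkbie, which holds NF-kB in the cytoplasm, rose by 2.38 ± 0.31 (adjusted p = 0.00587), its relative Bcl3 by 2.14 ± 0.29 (adjusted p = 0.0066), the decoy receptor Sigirr by 1.69 ± 0.26 (adjusted p = 0.0101) and Socs1 by 3.12 ± 0.49 (adjusted p = 0.0114). Irak3, the kinase-like inhibitor of Myd88 signals, had 39.6 and 55.4 CPM in the mutant libraries, against 95.6, 58.5 and 62.6 CPM in the wild-type libraries (adjusted p = 0.213). Without wild-type replicate 1, 2 or 3 the count of inhibitors that rose was 4, 5 and 4, in those same fits.

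Of 17 target genes tested 5 rose, with a list median of 1.31. Il12b, a subunit of interleukin-12, had 43.9 and 12.4 CPM in the mutant libraries, against 0.0804, 0.143 and 0.228 CPM in the wild-type libraries (log2 fold change 7.54 ± 0.84, SE, adjusted p = 0.0032). Cxcl10, an interferon-induced chemokine, had 111 and 27.6 CPM in the mutant libraries, against 3.08, 3.20 and 2.12 CPM in the wild-type libraries (log2 fold change 4.62 ± 0.62, SE, adjusted p = 0.00631). Cd40, a co-stimulatory receptor also found on B cells, rose by 3.45 ± 0.41 (adjusted p = 0.00419), and the chemokine Ccl5 rose by 3.18 ± 0.69 (adjusted p = 0.03). Tnf had 35.8 and 37.5 CPM in the mutant libraries, against 20.7, 16.4 and 19.2 CPM in the wild-type libraries, without a call (adjusted p = 0.0762). Il6 overlapped between genotypes, with 0.554 and 3.34 CPM in the mutant libraries, against 1.43, 2.01 and 1.31 CPM in the wild-type libraries (adjusted p = 0.802). The count of target genes that rose was 3 without any 1 of the wild-type libraries, again in fits with fewer calls over all genes.

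**Figure D5:**
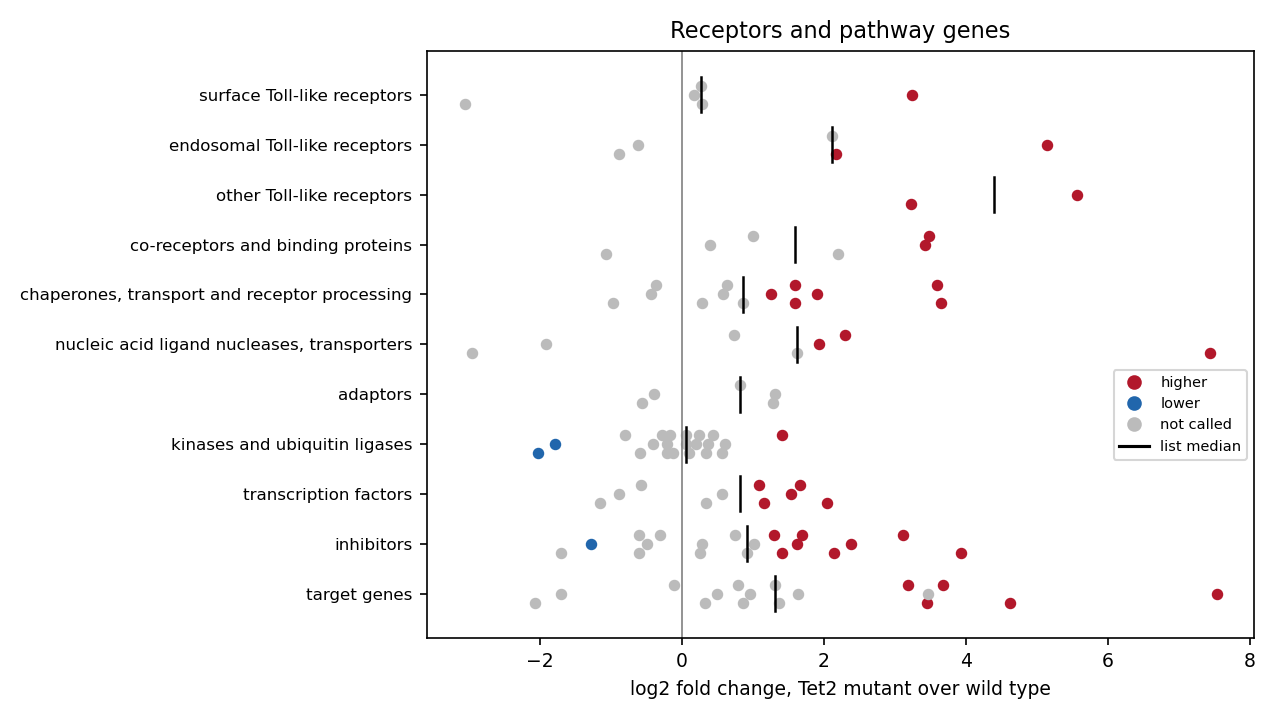
Log2 fold change of Tet2 mutant over wild type for each tested gene of the receptor and pathway lists, 1 row per list; red points were called higher, blue lower and grey not called, and black bars are list medians. The nuclease Dnase1l3 (7.44) and the target Il12b (7.54) lie farthest to the right.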

How the data were processed

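The authors deposited raw gene counts, 1 table per library with 55291 symbols. Per the labels' protocols, 1.3 ug of total RNA was the input of a SMARTER mRNA-Seq kit. The tools named per the submitters' processing notes are Trimmomatic (trimming) and STAR (alignment), with mm10 as the genome. Neither tool versions nor the counter, annotation or strand setting were given in the sources used here. Overlapping or antisense genes therefore cannot be told apart.

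Counts were analysed as deposited in R 4.3.3 with edgeR 4.0.16 (filterByExpr, TMM scaling, quasi-likelihood F-test, Benjamini-Hochberg adjustment over 17062 genes). The SE is the absolute log2 fold change over the root of F, and the common dispersion equalled a coefficient of variation of 0.507. CPM uses TMM-adjusted library sizes. A level of 3 counts, the floor, stood at 0.0357 to 0.237 CPM. Intervals are exact Poisson at 95% and cover counting error only. Levels per kilobase use merged exons of GENCODE M21 (GRCm38). Replicate libraries differed beyond sampling noise and each counted once. Alternatives used DESeq2 1.42.0, limma 3.58.1, other scalings and filters, a replicate block and each library left out. The test was checked on simulated counts, with 50 genes at each size of change. It called 0 at 2-fold, 9 at 4-fold, 17 at 8-fold and 32 at 16-fold. A gene without a call may therefore still differ between the genotypes.

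The members and lists were chosen with earlier results of these data known. Named genes are the 10 members, up to 4 called genes with the smallest p per pathway list (up to 2 by unadjusted p where none was called), 8 defining pathway genes, and the 3 genes nearest in profile to each called member. Cd79a, Fcer2a, Cr2, Siglech, Cox6a2, Ly6d, Bst2, Csf1r, Fcgr1 and Itgam were named after their values were seen. The near-identical Rnaset2a and Rnaset2b were also named outside this rule.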

Additional observations from a re-analysis of the deposited data

How the results depend on the processing

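Between the genotypes 2556 genes were called, against 4058 with library totals as the scale, 4557 without a filter, 5109 with DESeq2, 984 with a replicate block and 622 to 10862 when 1 library was left out. The split was 1801 higher and 755 lower (70.5% higher), against 29.1% higher with library totals, 43.6% with upper-quartile scaling, 58.2% with DESeq2 and 57.4% with limma-voom. The rise of Tlr1 was called in every fit that kept both mutant libraries, and its log2 fold change was 3.34 with the replicate block. Endosomal receptors called higher numbered 1 under a filter of 1 CPM in 3 libraries, which removed Tlr3 and Tlr9, 1 with limma-voom, 0 with the replicate block and 0 to 1 when 1 wild-type library was left out. Surface receptors called higher numbered 1 without any 1 of the wild-type libraries. With the block the adjusted p was 0.0768 for Tlr7, 0.389 for Tlr9 and 0.412 for Tlr12. The labels do not say whether libraries of the same number are linked. Deviations from the genotype mean correlated at -0.0269 for the libraries numbered 2 and -0.0242 for those numbered 3. The deviations of the 2 mutant libraries mirror each other (correlation -1). The correlations are therefore not separate checks, and they cannot decide whether the libraries are paired. The difference in endosomal share, -8.42 percentage points, ran from -21.7 without mutant replicate 3 to 4.83 without mutant replicate 2. Directions turned for Tlr2 (-0.0834 with upper-quartile scaling, -0.29 with library totals, -0.0749 with limma-voom, -0.51 without mutant replicate 2), Tlr4 (-0.13, -0.34, -0.39 and -0.98 under the same settings), Tlr6 (-0.13 with upper-quartile scaling, -0.36 with library totals), and, without mutant replicate 3, Tlr3 (-0.56), Ly96 (-0.28), Ticam1 (-1.06) and Il6 (-1.52). Il6 also turned with library totals (-0.0886) and the block (-0.19). Tet2 was at 0.0049 with relative log expression scaling, 0.0094 with DESeq2, 0.0545 with limma-voom, and between -1.02 and 0.53 when 1 library was left out. Leaving out 1 library moved these genes up to 0.79 (Tlr2), 0.93 (Tlr4), 2.97 (Tlr3), 3.06 (Ly96), 2.13 (Ticam1) and 1.07 (Il6). The causes were not tested. Depth limits Tlr5, Tlr3 and Tlr9 in mutant replicate 2, where each had 4 to 8 counts.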
